A study of Caenorhabditis elegans with 2 samples.

Results

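The cytosolic chaperonin CCT, also called TRiC, is a barrel of stacked rings that encloses unfolded proteins and releases them after ATP hydrolysis. Each ring is built from different but related subunits, each with its own gene, and actin and tubulin are its best known clients. In Caenorhabditis elegans the subunit genes are cct-1 to cct-8, and these 8 of the 19971 protein-coding genes on the nuclear chromosomes in the RefSeq annotation of WBcel235 are described here, chosen by their symbols. The annotation calls their products T-complex protein 1 subunits alpha, beta, gamma, delta, epsilon, zeta, eta and theta, in the order of the gene numbers. For each gene, regions with a summit within 500 bp of an annotated transcript start or inside the gene were collected.

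The data came from chromatin immunoprecipitation followed by sequencing (ChIP-seq) of whole L2 larvae. There was 1 group of 2 biological replicates and no contrast between groups. The worms, strain OP608, carried unc-119(tm4063) and the integrated transgene wgIs608, in which Y55F3AM.14 is fused at its C terminus to TY, EGFP and 3xFLAG tags beside an unc-119(+) rescue marker. They were of mixed sex, starved as L1 after bleaching and 42 hours old, and an anti-GFP antibody was used, so the profile is that of 1 transgenic line in a whole animal and no tissue can be told from another. Y55F3AM.14 is znf-782 in the annotation, and endogenous protein without the tag was not measured. The deposited lists held 1604 optimal regions, 29629 pooled relaxed regions, and relaxed lists of 29577 regions in replicate 1 and 28681 in replicate 2. The relaxed lists hold background as well as peaks. The score is the value the authors' caller gave each region. The sequencing depth behind the scores is unknown, and 2 replicates without a control group allow no test of a difference.

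Optimal regions lay between the starts of 3 CCT genes and those of their divergent neighbours, and in an intron of a further one. The summit sequences of these 4 regions are shown because the results below turn on them. They were read 5′ to 3′ on the strand of the CCT gene from the RefSeq genome WBcel235, which has the coordinates of ce11. Capitals mark GACGC, a sequence known to be common at the optimal summits of these data, and GAANNTTC, the core of the heat shock element, each on either strand. For cct-8 the whole optimal region is shown (chrIV:1094296-1094428, minus strand). The others are 75 bp on each side of the summit: cct-1 at chrII:8185158-8185308 (plus strand), cct-7 at chrV:1871862-1872012 (plus strand) and cct-5 at chrIII:4504541-4504691 (minus strand).
cct-8: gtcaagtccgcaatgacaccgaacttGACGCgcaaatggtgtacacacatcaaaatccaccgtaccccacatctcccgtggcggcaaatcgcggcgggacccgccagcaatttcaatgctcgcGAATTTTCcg
cct-1: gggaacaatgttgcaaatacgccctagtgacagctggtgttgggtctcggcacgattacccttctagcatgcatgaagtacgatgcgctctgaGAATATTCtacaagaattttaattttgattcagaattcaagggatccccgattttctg
cct-7: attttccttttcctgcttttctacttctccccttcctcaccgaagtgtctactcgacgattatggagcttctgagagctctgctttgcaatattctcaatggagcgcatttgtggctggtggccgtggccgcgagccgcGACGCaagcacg
cct-5: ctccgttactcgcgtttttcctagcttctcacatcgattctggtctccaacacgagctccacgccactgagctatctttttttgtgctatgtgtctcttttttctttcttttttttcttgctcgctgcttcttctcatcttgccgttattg

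GACGC stood 41 bp upstream of the summit at cct-8 and 66 bp downstream of it at cct-7, and in neither of the other windows. Of all optimal summit windows 31.4% held it, against 13.7% of the windows at weaker regions, the 27586 pooled regions that overlap no optimal one. The longer AGACGCAG, which contains it, and GAGAGA were in none of the 4 CCT windows, while 11.3% and 34.5% of all optimal windows held them. GAANNTTC lay 22 bp downstream of the cct-1 summit and 58 bp downstream of the cct-8 summit, and in 5.36% of optimal against 8.99% of weaker windows. Every 36-base stretch of the 4 windows occurred once in the nuclear genome. The GC content was 55.6% over the 133 bp region at cct-8. Over the 151 bp windows it was 53.0% at cct-7 and 43.7% at both cct-1 and cct-5. The median GC content was 47.7% over optimal windows and 40.4% over weaker ones. Its part in the motif shares was not tested.

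Within 500 bp of a start, cct-1, cct-7 and cct-8 had an optimal region, 3 of 8 genes. Of all protein-coding genes, 3.42% had one. The 1604 highest regions of either replicate named the same 3 genes, against 3.32% of all genes in replicate 1 and 3.39% in replicate 2. In the pooled relaxed list cct-5 and cct-6 joined them, giving 5 of 8 genes against 33.1% of all genes. The same 5 genes had a region in both replicate lists with summits within 100 bp of each other, against 14.4% of all genes. Counting summits inside the gene as well, optimal regions reached 4 of 8 genes, with cct-5 added (4.86% of all genes), and pooled regions reached 6 of 8, with cct-3 added (54.8% of all genes). For cct-2 and cct-4 no list held a region by either rule. Within 250 bp of a start, cct-1 alone had an optimal region, against 2.05% of all genes, and within 1000 bp it was again cct-1, cct-7 and cct-8, against 4.93%. When each region counted only for the gene with the nearest start, cct-1 alone was again left, against 2.88%, and its start was tied with that of its neighbour.

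**Figure D1:**
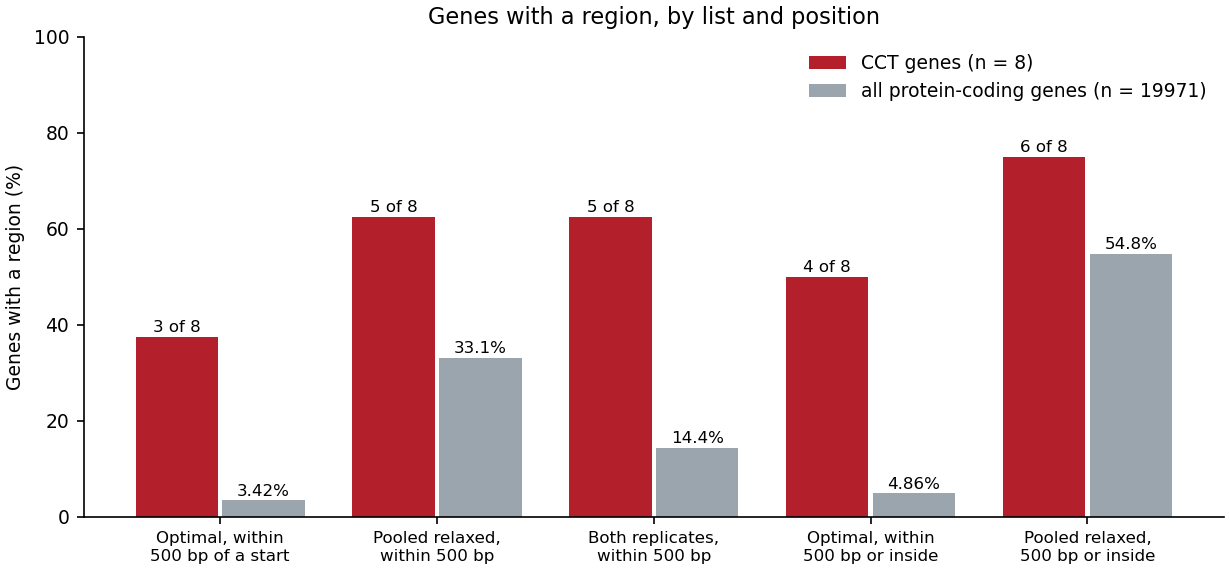
Share of genes with a region (y axis, percent) for the 8 CCT genes (red, with the count) and for all 19971 protein-coding genes (grey, with the percent), for 5 combinations of list and position (x axis). The CCT share stands far above the grey bar for optimal regions near a start (3 of 8 against 3.42%) and less so for pooled regions near a start or inside the gene (6 of 8 against 54.8%).

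**Figure D2:**
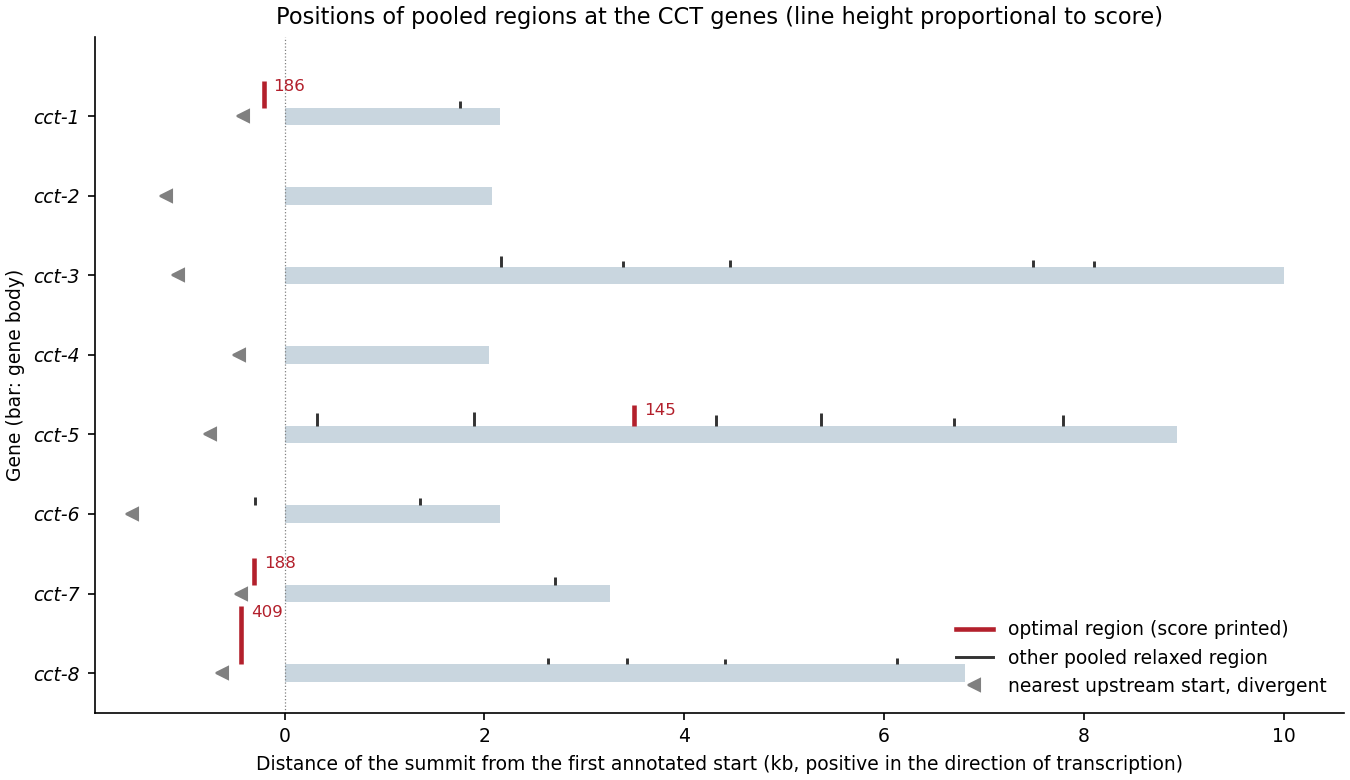
Pooled relaxed regions at each CCT gene (rows), placed by the distance of the summit from the first annotated start (x axis, kb). Line height is proportional to the score, red lines are optimal regions with the score printed, black lines other pooled regions, bars gene bodies and grey triangles the nearest upstream protein-coding start. Optimal regions lie upstream of cct-1, cct-7 and cct-8 and 3498 bp into cct-5, and cct-2 and cct-4 have no region.

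The strongest of these regions belonged to cct-8, the theta subunit gene on chromosome IV (Y55F3AR.3, chrIV:1087108-1093920, minus strand). Raised levels of this subunit in somatic tissue are known to extend lifespan in C. elegans. Its optimal region had a score of 409 pooled, 214 in replicate 1 and 189 in replicate 2. It ranked 58 in the optimal list, 71 in replicate 1 and 61 in replicate 2, so both replicates placed it near the top. Across all protein-coding genes, 30 had a stronger pooled region within 500 bp of a start (0.150% of genes), 32 in replicate 1 and 32 in replicate 2. The summit lay 439 bp upstream of the first cct-8 start and 182 bp upstream of Y55F3AR.2, the divergent gene on the other side, and 272 bp downstream of the start of the non-coding RNA gene Y55F3AR.4. A second transcript of cct-8 starts inside the gene, at position 1092171, and no region lay within 500 bp of that start. The 4 pooled regions inside cct-8 had scores of 39.8 to 44.1, and none was matched in both replicates.

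The cct-8 gene starts 26.4 kb from znf-782 (chrIV:1058076-1067525), the gene whose tagged copy the worms carry. How much of the neighbourhood the transgene carries is not given in the sources used here, and its part in this score was not tested. Around znf-782 all 3 relaxed lists were empty over a long stretch, 53.7 kb in the pooled list (chrIV:1020253-1073992), 54.8 kb in replicate 1 and 53.7 kb in replicate 2. Among the 26046 stretches between neighbouring pooled regions this one ranked 16 in length, and the median was 1.8 kb. Whether regions there were removed before deposit is not given in the sources used here, so neither the empty stretch nor the density around it can be read as a lack of binding. The cct-8 summit lay 20.4 kb beyond its end. Within 40 kb on either side of znf-782 there were 14 pooled regions, 1.57 per 10 kb against 2.56 per 10 kb over chromosome IV, and the region at cct-8 was the 1 optimal region among them. The other 13 had scores of 39.8 to 64.9. Without this neighbourhood, 2 of 8 CCT genes had an optimal region near a start, against 3.41% of all genes.

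**Figure D3:**
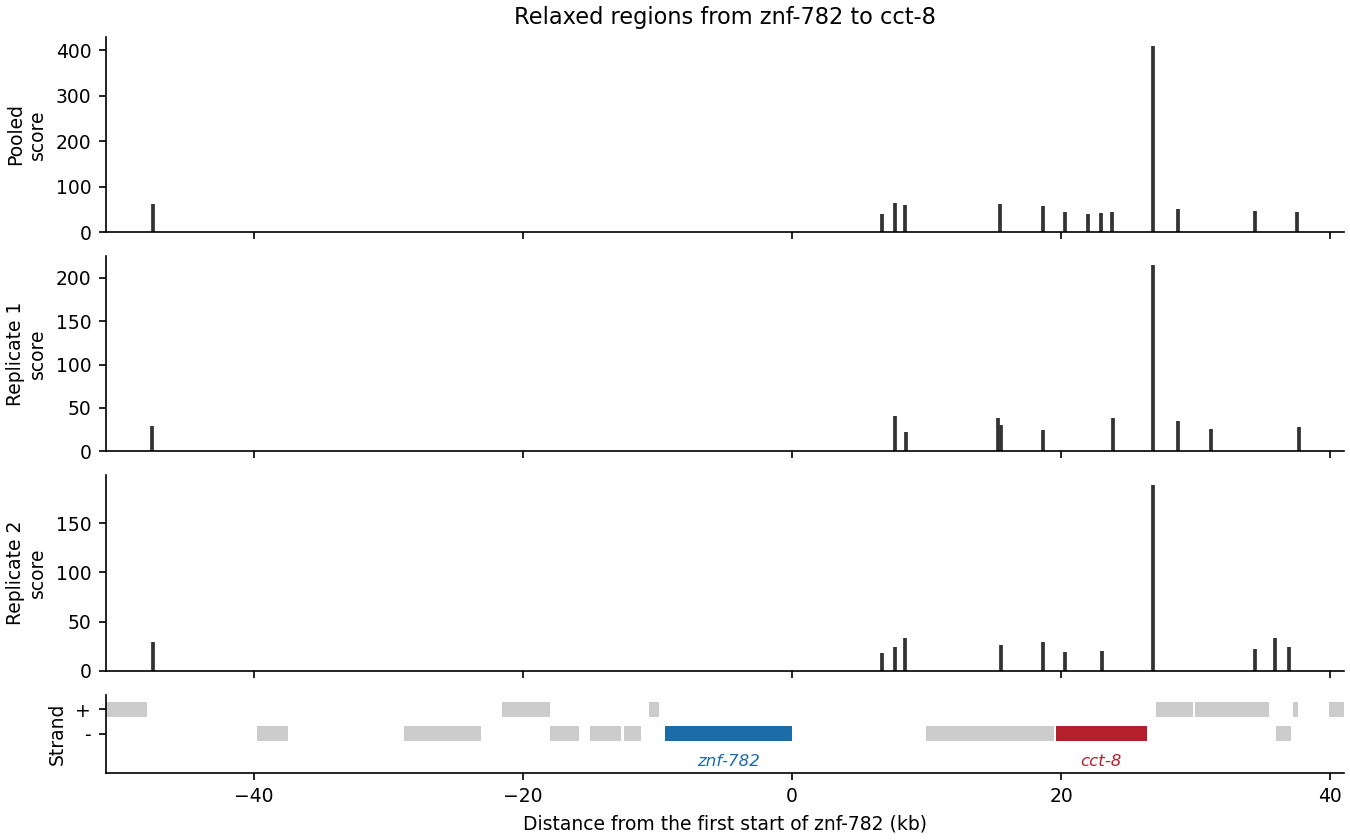
Scores of relaxed regions (y axes) in the pooled list, replicate 1 and replicate 2, by distance from the first start of znf-782 (x axis, kb), with protein-coding genes on both strands at the bottom (cct-8 red, znf-782 blue). Around znf-782 each list has an empty stretch of 53.7 to 54.8 kb, and the region upstream of cct-8 has scores of 409, 214 and 189, far above its neighbours.

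For cct-7 and cct-1 the pooled scores were close to each other, but the replicates ordered them differently. cct-7, the eta subunit gene (T10B5.5, chrV:1872246-1875505, plus strand), had an optimal region at chrV:1871725-1872148 with a score of 188 pooled, 114 in replicate 1 and 70.3 in replicate 2. cct-1, the alpha subunit gene (T05C12.7, chrII:8185443-8187601, plus strand), had one at chrII:8185021-8185444 with scores of 186, 76.1 and 109.8 in the same lists. Thus cct-7 stood above cct-1 in replicate 1 and below it in replicate 2, and their order does not exceed the spread between replicates. They ranked 472 and 478 in the optimal list.

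Replicate 1 scores were generally the higher ones. Sequencing depth is unknown, and its part in this was not tested. Over the 1517 optimal regions with a summit in both replicate lists, the ratio of replicate 1 to replicate 2 had a median of 1.2, with 5% of regions below 0.700 and 5% above 2.02. The ratio was 1.13 at cct-8, 1.63 at cct-7 and 1.76 at cct-5. At cct-1 it was 0.694, and 4.88% of regions had a lower one. The summits of the replicates were within 3 bp of each other at cct-1, 4 bp at cct-8 and 10 bp at cct-7. At cct-5 they lay 29 bp to either side of the pooled summit.

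**Figure D4:**
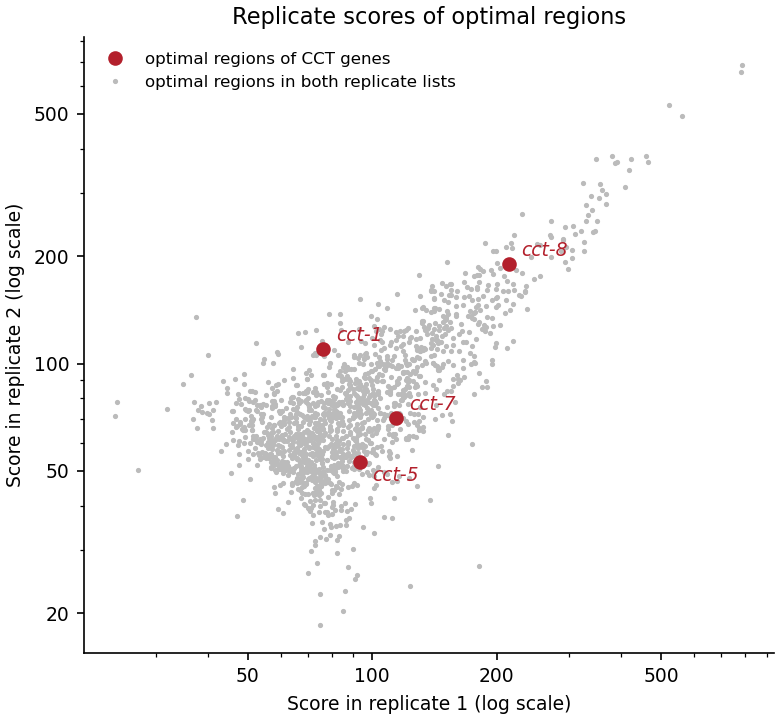
Scores in replicate 1 (x axis) and replicate 2 (y axis), both on log scales, of the optimal regions at cct-1, cct-5, cct-7 and cct-8 (red) and of all 1517 optimal regions found in both replicate lists (grey). cct-8 is high in both, and cct-1 lies toward the upper edge of the cloud with 76.1 in replicate 1 and 109.8 in replicate 2.

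All 3 optimal regions near CCT starts lay in the interval between divergent genes. The cct-1 summit was 210 bp upstream of cct-1 and 210 bp upstream of mig-5, a gene for a Dishevelled protein of Wnt signalling. The cct-7 summit was 309 bp upstream of cct-7, 130 bp upstream of T10B5.4 and 43 bp upstream of the non-coding RNA gene T10B5.13. Among the 606 optimal regions near a protein-coding start, 16.3% counted for genes on both strands. Upstream neighbours were sought among protein-coding genes only, so non-coding genes such as T10B5.13 were passed over. By this rule each of the 8 CCT genes has a divergent neighbour as the nearest upstream start. This holds for 45.8% of all protein-coding genes, and of those genes 4.56% had an optimal region near a start. For 5 of 8 that start was within 1000 bp, against 17.7% of all genes, and for 4 of 8 within 700 bp, against 13.2%. The distance between the starts was 420 bp at cct-1, 439 bp at cct-7, 459 bp at cct-4 and 621 bp at cct-8, and 741 to 1522 bp at the others. Of the 5 CCT genes with a divergent start within 1000 bp, 3 had an optimal region near a start, against 6.69% of all such genes. Within 700 bp it was 3 of 4, with cct-4 the one without, against 7.37%. This limit falls between cct-8 at 621 bp and cct-5 at 741 bp, which had no optimal region near its start, so 3 of 4 adds nothing to 3 of 5. The upstream interval of cct-4, shared with the nucleostemin gene nst-1, had no region in any list.

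The gene cct-5, for the epsilon subunit (C07G2.3, chrIII:4499188-4508114, minus strand), had its optimal region inside the gene and not near its start. It had 7 pooled regions inside, 4 of them in its second intron (chrIII:4501510-4507643, 6134 bp). The optimal one was in this intron, at chrIII:4504404-4504827, with a score of 144.7 pooled, 93.2 in replicate 1 and 52.9 in replicate 2. The next, 98.5 in the pooled list, was below the lowest optimal score of 110.3, and had 49.1 in replicate 1 and 57.5 in replicate 2. In replicate 2 it stood above the optimal region, so the replicates gave these 2 intronic regions different orders. Near the start of cct-5, 329 bp into the gene and in a coding exon, a region had a score of 89.4 pooled, 55.9 in replicate 1 and 31.6 in replicate 2. It was the 1 CCT gene with an optimal region inside, against 2.25% of all genes and 9.45% of genes of 6000 bp or longer. Of those long genes, 14.7% had 7 or more pooled regions inside. Pooled regions inside were found in 6 of 8 CCT genes, against 47.0% of all genes, and in 3 of 3 long ones, against 85.1% of long genes.

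**Figure D5:**
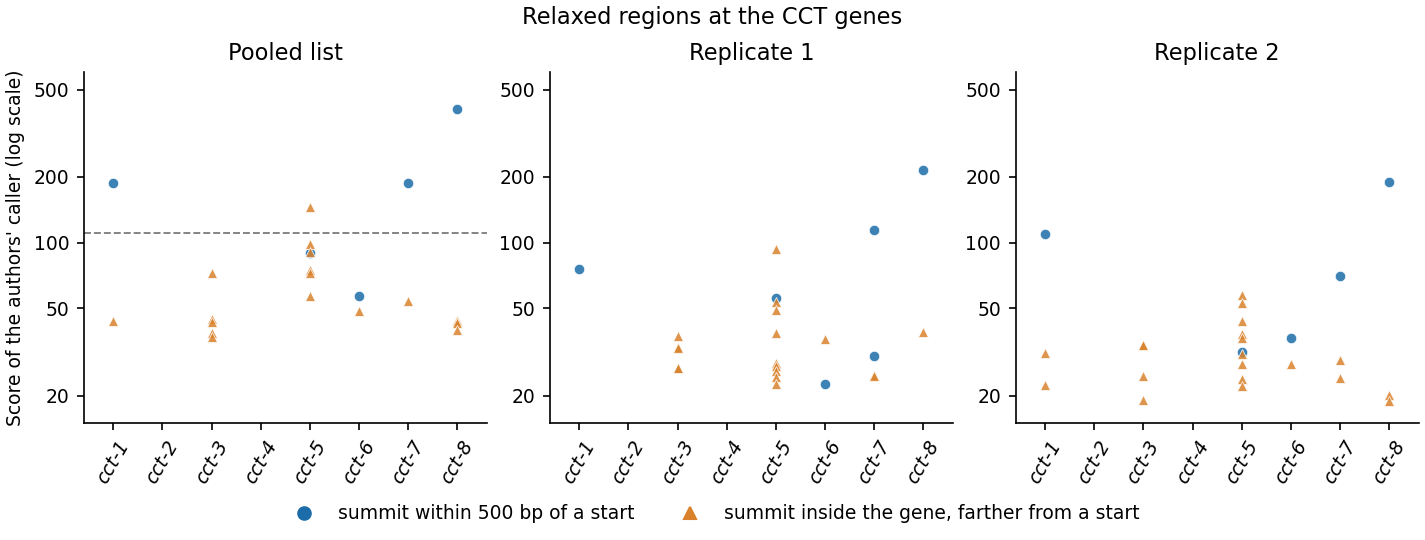
Scores (y axes, log scale) of every relaxed region at each CCT gene (x axis) in the pooled list, replicate 1 and replicate 2. Blue circles have a summit within 500 bp of a start, orange triangles lie inside the gene farther from a start, and the dashed line in the left panel is the lowest score of the optimal list, 110.3. The highest region of each list is that of cct-8, cct-5 has the most regions, and the columns of cct-2 and cct-4 are empty.

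The zeta subunit gene cct-6 (F01F1.8, chrIII:5853530-5855687, minus strand) had a weak region near its start, at chrIII:5855774-5856197. The scores were 56.9 pooled, 22.6 in replicate 1 and 36.5 in replicate 2, and the summit lay 299 bp upstream of the start. Of all protein-coding genes, 14.6% had a stronger pooled region near a start. The replicates put it at rank 27730 of 29577 and rank 4906 of 28681, so replicate 1 placed it among its lowest regions. The nearest optimal summit was 9969 bp from the cct-6 start.

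The gamma subunit gene cct-3 (F54A3.3, chrII:2233540-2243539, plus strand) is the longest of the family at 10000 bp and had no region near its start. Its 5 pooled regions lay inside the gene with scores of 37.0 to 72.8. The strongest, in a coding exon at chrII:2235493-2235916, had 72.8 pooled, 32.9 in replicate 1 and 34.0 in replicate 2, and was the only one of the 5 matched in both replicates. Its nearest optimal summit was 145239 bp from the start.

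The beta subunit gene cct-2 (T21B10.7, chrII:8927741-8929815, plus strand) and the delta subunit gene cct-4 (K01C8.10, chrII:8283667-8285711, plus strand) had no region in the pooled list or in either replicate. The nearest pooled summits were 3578 bp downstream of the cct-2 start and 2556 bp downstream of the cct-4 start, both beyond the genes' ends. The optimal summit nearest to cct-4 was that of cct-1 itself, 98434 bp away on chromosome II. Both genes are short, with introns of at most 58 bp. Of the CCT genes of 2000 to 3500 bp, 3 of 5 had a pooled region inside, against 51.8% of all genes of that length. An absent region means that none was listed, not that the tagged protein was absent.

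In all, the pooled list held 23 regions at 6 CCT genes, 4 with a summit in intergenic sequence, 12 in introns, 6 in coding exons and 1 in an untranslated exon. Of the 23, 11 were matched by a summit within 100 bp in both replicates, 10 in 1 of them and 2 in neither. All 4 optimal regions were among the 11. Matches in both replicates were usual for optimal regions, with 1517 of all 1604 so matched, so these 4 do not set the CCT genes apart. For summit position and for matching, shares over all pooled regions are not given here. The density of pooled regions inside the genes was 0.508 per kb over the 8 CCT genes, against 0.308 per kb over all protein-coding genes. It was 0.622 per kb in the 3 CCT genes of 6000 bp or longer (cct-3, cct-5 and cct-8), against 0.322 per kb over all genes of that length. In the other 5 it was 0.256 per kb. An optimal region lay 238 bp beyond the end of cct-7, in an untranslated exon of zig-11, an immunoglobulin superfamily gene. It fell outside the rule, and its scores differed between the replicates, with 126.8 pooled, 24.1 in replicate 1 and 77.8 in replicate 2.

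In the promoters, taken as 250 bases before to 50 after the first start, GAANNTTC was in 5 of 8 CCT genes (cct-1, cct-3, cct-5, cct-7 and cct-8) and in 18.5% of all protein-coding genes. GACGC was in the promoter of cct-7 alone, against 19.3% of all genes. GAGAGA and AGACGCAG were in none of the 8, against 21.7% and 3.53% of all genes. Of the genes with GAANNTTC in the promoter, cct-3 had no region near its start and cct-5 had no optimal one there.

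Genes whose optimal regions had the most similar scores in both replicates were taken from 647 protein-coding genes, by the distance between log2 scores over 2 samples. For cct-8 they were rps-3A (219 in replicate 1 and 193 in replicate 2), whose product is a protein of the small ribosomal subunit, and C53H9.4 (208 and 176). For cct-7 they were arf-1, an ADP-ribosylation factor gene (116 and 69.8), and hpr-9, a homolog of the Rad9 checkpoint clamp subunit (112 and 67.2). For cct-1 they were ntl-11, of the CCR4-NOT complex (76.5 and 105.0), and kin-20, a casein kinase I homolog (73.1 and 105.6).

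Other genes of the folding pathway were listed as prefoldin subunits, partner chaperones, the mitochondrial chaperonin, tubulins, actins, the WD40 clients fzy-1 and fzr-1 and the heat shock factor hsf-1. Of 34 symbols 33 were found. The exception, daf-21, was looked up only by that symbol, and the gene may be listed under another one. An optimal region near a start was present for 6 of the 33 (18.2%, against 3.42% of all genes). A pooled region near a start was present for 19 of 33 (57.6%, against 33.1% of all genes). Among the prefoldins, which deliver unfolded actin and tubulin to the chaperonin, pfd-1 was the 1 of 6 with an optimal region. It lay at chrIV:11149536-11149959, 365 bp upstream of the start, with 202 pooled, 73.1 in replicate 1 and 123.9 in replicate 2. Both partner chaperone genes found, the Hsp70 gene hsp-1 (543 pooled, 310 and 231 in replicates 1 and 2) and the DnaJ gene dnj-13 (346 pooled, 179 and 164), had strong ones.

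Among the genes of the main clients, an optimal region near a start was found for 1 of 16 tubulin genes (6.25%) and 2 of 5 actin genes (40%). The share over all genes was 3.42%, and 1 tubulin gene of 16 cannot be told from it. The tubulin gene was tba-7 (147.8 pooled, 76.2 in replicate 1 and 71.6 in replicate 2). The actin genes were act-2 (113.8 pooled, 62.6 in replicate 1 and no summit within 100 bp in replicate 2) and act-4 (114.3 pooled, 82.1 in replicate 1 and 32.0 in replicate 2), both just above the lowest optimal score. Replicate 2 did have a region near the act-2 start, with a score of 65.6. Its summit lay 158 bp past the start, against 349 bp in the pooled list and in replicate 1. Among the 1604 highest regions of replicate 1, act-2 had none near a start, and among those of replicate 2, act-4 had none. The act-4 region lay inside the gene and counted only through a later transcript start, not through the 5′ end of the gene. Within 500 bp of a start, the mitochondrial chaperonin gene hsp-60 had only pooled relaxed regions. The strongest (63.8) lay inside the gene and counted only through a later transcript start. In the same window fzy-1 (52.2) and fzr-1 (64.2) also had only pooled relaxed regions. Just outside that window, 601 bp upstream of hsp-60, an optimal region at chrIII:1619094-1619216 had scores of 312 pooled, 174.0 in replicate 1 and 134.1 in replicate 2, higher in each than those at cct-1 and cct-7. Optimal regions also lay 644 bp upstream of the tubulin gene tba-2 (173 pooled), 861 bp upstream of the gamma-tubulin gene tbg-1 (120.2 pooled) and 943 bp upstream of fzr-1 (171 pooled). The gene of the heat shock factor hsf-1, which drives chaperone genes under stress, had no region near a start in any list.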

How the data were processed

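ChIP-seq peak lists of 2 biological replicates on build ce11 were used as the authors deposited them. Per the README deposited with the samples, each replicate list was made from its alignments and 1 control, the pooled list from both replicates and 1 control, and the optimal list from these by an irreproducible discovery rate threshold. For the aligner, the caller and the threshold, each name or value is not given in the sources used here. The score is the signal value that the authors deposited for each region, on a scale not given here. A −log10 q value was also deposited for each region (0.0178 to 2.78 in the pooled list), which was not used to filter. Read depth is unknown, so scores of different lists are given side by side, and the ratios between replicates were not corrected for depth.

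Summits came from the deposited offset, and genes, starts and sequence from RefSeq WBcel235. No region ran past a chromosome's end. A replicate summit within 100 bp of a pooled summit was taken as its match. Members are described by counts beside the same count over all protein-coding genes, with no test. The 8 CCT genes, the other genes of the folding pathway and the motifs were chosen with earlier results of these data known. The rule for named genes took the members, every gene whose start lies within 500 bp of the summit of a member's optimal region, folding pathway genes with an optimal region, znf-782 and unc-119, and for each member with an optimal region near its start the 2 genes nearest in log2 scores over both replicates. Other genes named (nst-1, zig-11, hsp-60, tba-2, tbg-1, fzy-1, fzr-1, hsf-1 and daf-21) were added after their values were seen. Counting was tested on simulated regions. Python 3.11.15, pandas 2.3.3 and NumPy 2.4.6 were used.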

Additional observations from a re-analysis of the deposited data

How the results depend on the processing

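Of 52 alternative values for the counts above, 42 were within 1.5 times the main one. With a window of 250 bp, 1 CCT gene and 1 folding pathway gene outside the CCT had an optimal region near a start, against 2.05% of all genes. For pooled regions and for regions in both replicates, 1 CCT gene was left at 250 bp. The share of all genes is not given here for these last 2 counts, so their drop cannot be set against that of all genes. With 1000 bp, 10 folding pathway genes outside the CCT had an optimal region, with hsp-60, tba-2, tbg-1 and fzr-1 added, against 4.93% of all genes. Counting only the nearest gene left 1 CCT gene with an optimal region, against 2.88% of all genes. It left 3 with a pooled region, for which the share of all genes is not given here. In the upper part of the optimal list by score, 802 regions, 3 folding pathway genes and 1.81% of all genes had a region, and cct-1, cct-7 and cct-8 were kept. No optimal list was made without a replicate. In its place, the 1604 highest regions of each replicate gave 3 CCT genes near a start, as above, and 4 with inside summits. They gave 5 folding pathway genes near a start, and 3.32% to 3.39% of all genes. The relaxed list of each replicate gave 5 CCT genes near a start, against 32.9% of all genes in replicate 1 and 32.2% in replicate 2. With inside summits it gave 6. For the counts with inside summits in 1 replicate, the share of all genes is not given here. With only the 5′ end of each gene model as its start, 3 CCT genes, 5 folding pathway genes and 3.1% of all genes had an optimal region, and act-4 was lost. Starts from the Ensembl annotation, an alternative chosen after seeing the data, gave 3 CCT genes, 7 folding pathway genes and 3.51% of all genes. Matching summits within 50 or 200 bp changed 1 score, that of cct-3 in replicate 1 (37.3 with 200 bp). No paired analysis was possible because there is 1 group. With no read totals, no counting interval could be given, and weak regions such as that of cct-6 cannot be told from background.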
